A study of Mus musculus with 12 samples.

Results

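The genes described here are 39 genes of the unfolded protein, stress and chaperone programmes, chosen by symbol and mapped through GENCODE identifiers, out of 48526 genes in a count table of bone marrow-derived macrophages (BMDMs). All 39 were found in the table and all 39 passed the filter on low counts, so every member was tested. They were sorted by role into 14 endoplasmic reticulum (ER) chaperones and foldases, 6 genes of ER-associated degradation (ERAD), 4 sensors and XBP1, 9 genes of the ATF4 arm, 4 cytosolic heat-shock genes and the 2 subunits of the mitochondrial chaperonin.

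The study deleted HSS9, also named TNF-9, an enhancer upstream of Tnf, and asked what its loss does to macrophages. The 4 groups, WT UT, WT LPS, KO UT and KO LPS, held 3 total RNA libraries each. KO mice were homozygous for the HSS9 deletion and the labels call the WT mice HSS9+/+ littermate controls, whereas the methods name purchased C57BL/6 mice. All mice were male and aged 7 to 10 weeks. Marrow cells of every group were grown for 6 days in L929-conditioned medium, and then received PBS (UT, untreated) or the bacterial cell wall component LPS for 6 hr. The deletion is carried by every cell of the animal, and nothing in the labels says that replicates came from separate animals. If they did not, the p-values measure only the spread between these libraries.

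Unfolded proteins in the ER are detected by IRE1 (encoded by Ern1), PERK (Eif2ak3) and ATF6. IRE1 splices the Xbp1 transcript, and spliced XBP1 and cleaved ATF6 raise ER chaperone and ERAD genes. PERK phosphorylates eIF2α, which slows translation in general while favouring translation of ATF4, the transcription factor that also answers amino acid shortage through other kinases. Cytosolic heat-shock genes follow a separate factor, HSF1. In macrophages, LPS is known to engage parts of this network while secretory proteins are being made in quantity.

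Short stretches of member promoters are shown first, because they group members by sequence, apart from any expression value. RefSeq promoter windows (GRCm38.p6, 250 bases before to 50 after the start site) were given for 33 of the 39 members, all but Hyou1, Manf, Derl1, Atf6, Hspa8 and Hsp90aa1. The ER stress element (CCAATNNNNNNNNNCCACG, searched on both strands), which is bound by ATF6 and NF-Y, was found in windows of 9 of 33 members, against 0.119% of 32851 RefSeq windows of the same length. The C/EBP-ATF response element (TGATGNAA, both strands), the site of ATF4 heterodimers, was found in 5 of 33 members, against 3.97% of all windows. A heat shock element core (GAANNTTC, a palindrome) was found in 4 of 33 members, against 7.86%. Capitals mark the match, each stretch is written 5′ to 3′ in the direction of its gene, and the 4 ER genes are given first, followed by 3 genes of the ATF4 arm and Hspe1 of the mitochondrial pair.
Hspa5, chr2:34772020-34772048, plus strand: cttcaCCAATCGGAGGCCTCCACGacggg
Hsp90b1, chr10:86705633-86705661, minus strand: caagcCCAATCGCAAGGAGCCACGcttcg
Syvn1, chr19:6046527-6046555, plus strand: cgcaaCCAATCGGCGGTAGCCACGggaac
Derl3, chr10:75893237-75893265, plus strand, match reversed: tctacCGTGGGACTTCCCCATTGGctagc
Asns, chr6:7693215-7693242, minus strand: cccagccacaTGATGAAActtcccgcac
Chac1, chr2:119351039-119351066, plus strand, match reversed: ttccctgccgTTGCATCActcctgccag
Nupr1, chr7:126625563-126625590, minus strand, match reversed: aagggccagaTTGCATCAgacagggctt
Hspe1, chr1:55088054-55088081, plus strand: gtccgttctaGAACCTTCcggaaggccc
The other ER stress elements lay in Calr, Canx, Pdia6, Dnajc3 and Creld2, all of them ER chaperones or foldases. Hsp90b1 had a second match nearer to its start. The other C/EBP-ATF matches were in Herpud1 and Trib3. Hspe1 and Hspd1, which share a promoter region and are transcribed in opposite directions, held the same genomic heat shock element. The remaining cores were in Hsph1 and in Asns, where the core overlapped the C/EBP-ATF match. A match is a string of letters and does not show that a factor was bound.

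Libraries held 26154533 to 36423921 counts in genes, a 1.39-fold range, and 15523 genes were tested. The members took 0.476% to 0.605% of the counts of a library. Tnf, the gene for which the enhancer is named, was lower in KO than in WT in both treatments, at 9.10 to 10.5 CPM in KO UT against 14.8 to 16.2 CPM in WT UT, and at 422 to 450 CPM in KO LPS against 826 to 938 CPM in WT LPS. CPM are counts scaled to a common library total with edgeR's TMM factors. All 7 macrophage markers were expressed in every group, with a summed level of 24434 to 33679 CPM. B cell markers summed to at most 0.150 CPM. Neutrophil markers summed to 19.9 to 21.5 CPM in WT UT, 42.0 to 47.2 in KO UT, 50.4 to 79.3 in WT LPS and 67.1 to 76.2 in KO LPS, with Ly6g at 0 in every library. Single neutrophil markers moved in different directions with LPS: the mean of S100a8 went from 7.32 to 52.7 CPM in WT and from 16.4 to 56.8 in KO, while S100a9 went from 10.99 to 6.08 and from 25.5 to 10.2. Of 4 plasma cell markers, Sdc1 went from a mean of 82.3 to 282 CPM with LPS in WT and from 68.3 to 302 in KO, whereas Ighm went from 19.1 to 1.13 CPM in WT and from 37.8 to under 2 CPM in KO, Jchain stayed under 1 CPM and Mzb1 was at 0. Stromal markers summed to 4.82 to 6.82 CPM in UT, 21.9 to 24.1 in WT LPS and 26.9 to 28.9 in KO LPS. Most of that was Pdgfrb at 19.8 CPM in WT LPS and 19.7 in KO LPS, while Col1a2, Col3a1 and Dcn had means of 1.05, 0.644 and 0.789 CPM in WT LPS and of 2.43, 1.87 and 2.40 in KO LPS. T cell markers summed to at most 0.347 CPM in UT and to 6.36 to 8.33 CPM after LPS, with 3 of 4 at 0 in every LPS library. The part of these markers in the member values was not tested.

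A technical measure also moved with the groups. Small structured RNA genes took 3.00% to 3.25% of counts in WT UT, 6.63% to 7.83% in KO UT, 4.04% to 6.88% in WT LPS and 3.23% to 3.39% in KO LPS. The ranges of KO and WT do not overlap in either treatment, and their order is turned between treatments. A fit with this share as a covariate, chosen after these values were seen, is therefore given with the genotype results. Its slope rests on differences within groups, which were widest in WT LPS.

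LPS moved most of the 39 members, in both directions. A gene was called when edgeR's quasi-likelihood test gave an adjusted p under 0.05 and the log2 fold change was past 1. In WT, 8 of 39 members were called higher, against 19.1% of all genes tested, and 2 were called lower, against 18.7%. For KO the counts were 9 higher (all genes 17.7%) and 3 lower (19.3%). The 20.5% of members called higher in WT is near the background, while the 5.13% called lower is below it. At an adjusted p under 0.05 with any fold change, 17 members of the WT cultures rose and 14 fell (all genes 38.0% and 35.3%). For the KO cultures these counts were 14 and 11 (35.1% and 37.7%). The WT and KO responses share no libraries. In both genotypes 7 members were called higher (17.9%, all genes 15.3%) and 2 lower (5.13%, all genes 15.6%). At any fold change 13 rose in both (33.3%, all genes 31.3%) and 10 fell in both (25.6%, all genes 30.8%), and 0 passed in opposite directions (all genes 1.46%), so the shares that rose in both were near those of all genes. With the small RNA share in the fit, 26 of the 31 WT responses and 23 of the 25 KO responses still passed in the same direction. The lost ones were Pdia3, Derl3, Ddit3, Chac1 and Hsph1 in WT and Derl3 and Hspe1 in KO. Passing only in that fit were Canx, Sel1l and Hspd1 (upward) and Hspe1 (downward) in WT, and Hsp90b1, Canx, Pdia3, Hyou1 and Hspd1 in KO, all downward. Here and below, a lower level can mean fewer cells of a type or less RNA per cell, which bulk libraries cannot tell apart.

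**Figure D1:**
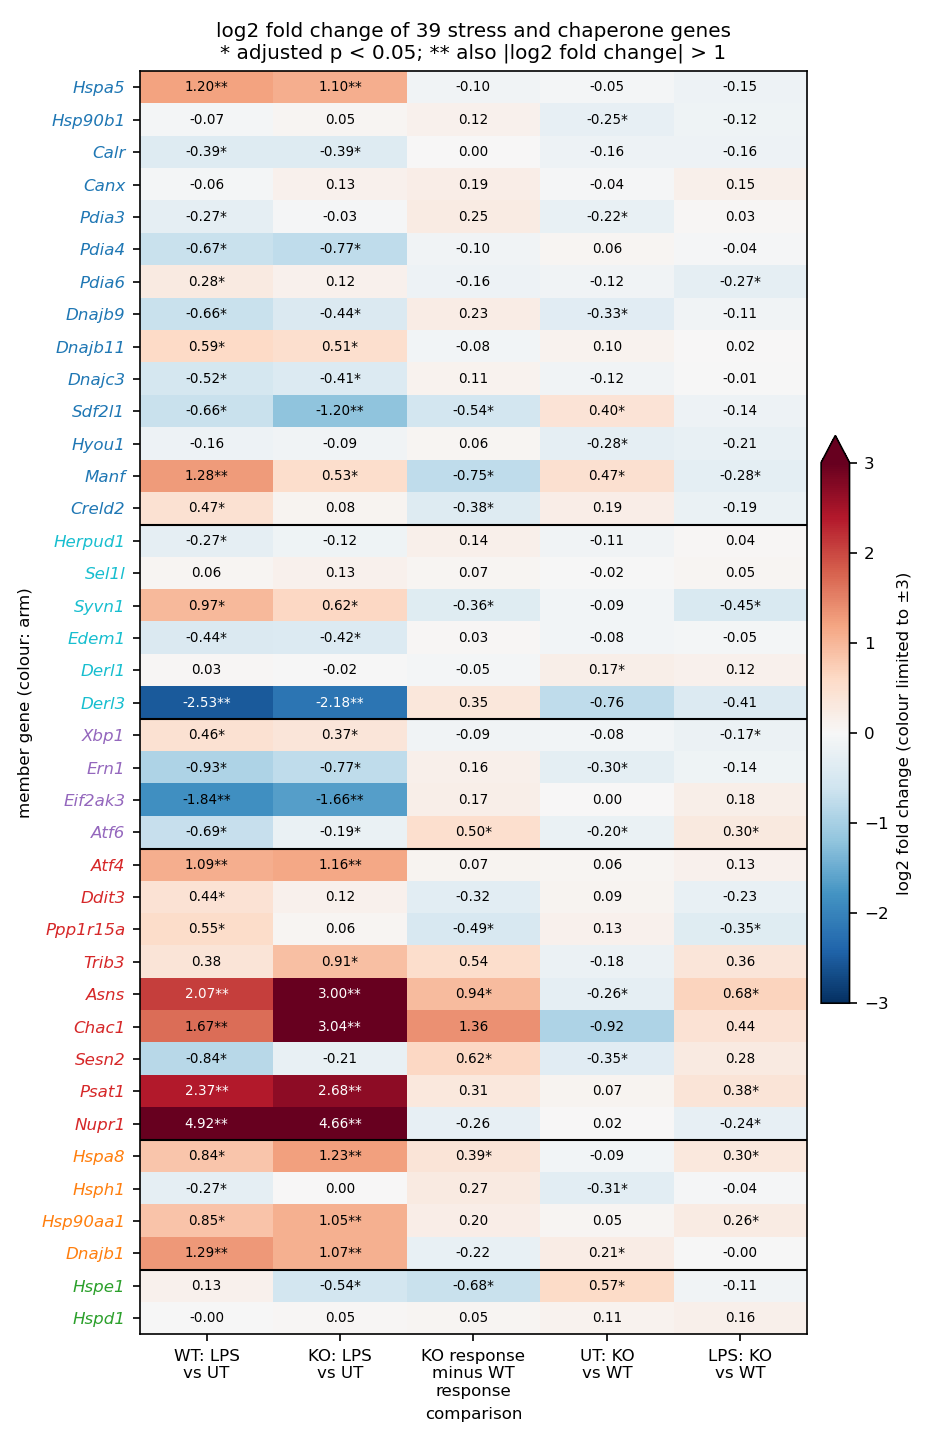
Log2 fold change of the 39 members (rows, coloured by arm) in 5 comparisons (columns), where 1 star marks an adjusted p under 0.05 and 2 stars a change also past 1 on the log2 scale. The LPS columns hold both rises and falls, with the largest rises in the ATF4 arm, whereas no value in the columns of KO against WT carries 2 stars.

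The ATF4 arm gave the largest rises. Of its 9 members, 5 were called higher in WT (all genes 19.1%) and the same number in KO (all genes 17.7%). The median log2 fold change was 1.09 in WT and 1.16 in KO, against 0.0471 and -0.0555 over all genes. Of 30 other tested genes listed for this arm, 11 were called higher in WT and 12 in KO, with medians of 0.0943 and 0.65. In WT 15 of the 30 rose and 11 fell at any fold change (50% and 36.7%, all genes 38.0% and 35.3%). The summed level of the 9 members was 144 to 162 CPM in the 6 UT libraries and 501 to 558 CPM in the 6 LPS libraries. Nupr1 took a large part of this change, with means of 7.15 and 217 CPM in WT and of 7.24 and 184 CPM in KO.

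Atf4 itself, the transcription factor of the arm, stood at 69.2, 62.3 and 65.9 CPM in WT UT and at 136, 143 and 141 CPM in WT LPS. It stood at 73.6, 66.9 and 65.7 CPM in KO UT and at 149, 153 and 159 CPM in KO LPS. The UT and LPS libraries were well apart in both genotypes. The log2 fold change was 1.09 ± 0.0593 (SE, edgeR adjusted p = 3.04e-13) in WT and 1.16 ± 0.0593 in KO (adjusted p = 1.02e-13). Nupr1, a small stress-induced chromatin protein, rose most among the members. It went from 7.60, 6.84 and 7.02 CPM in WT UT to 199, 215 and 236 CPM in WT LPS, a 30.3-fold rise. In KO it went from 7.32, 6.96 and 7.43 CPM to 187, 189 and 175 CPM, a 25.35-fold rise.

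Genes of amino acid synthesis followed. Psat1, an enzyme of serine synthesis, was at 11.9, 10.0 and 10.6 CPM in WT UT and at 58.5, 56.4 and 52.4 CPM in WT LPS. The KO libraries held 11.9, 10.3 and 11.8 CPM in UT and 68.2, 77.2 and 72.5 CPM after LPS. The rise was 5.16-fold in WT and 6.39-fold in KO. Asns, asparagine synthetase, was at 9.17, 9.82 and 10.1 CPM in WT UT and at 40.0, 39.9 and 42.1 CPM in WT LPS. KO libraries gave 7.98, 8.31 and 8.04 CPM in UT and 65.4, 69.5 and 60.3 CPM after LPS. The 3 KO LPS libraries stood above all WT LPS libraries, while in UT the KO libraries stood below the WT ones. Chac1, a glutathione-degrading enzyme, was low throughout, at 0.632, 0.375 and 0.383 CPM in WT UT and 1.19, 1.66 and 1.60 CPM in WT LPS. KO cultures gave 0.318, 0.294 and 0.126 CPM in UT and 2.108, 2.102 and 1.830 CPM after LPS. Its log2 fold change was 1.67 ± 0.336 in WT (adjusted p = 0.000137) and 3.04 ± 0.366 in KO (adjusted p = 1.79e-07), and the WT call was lost with the small RNA share in the fit (1.10 ± 0.560, adjusted p = 0.0893).

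The other members of the arm changed less. Ddit3, which encodes the apoptosis-linked factor CHOP, was at 23.5, 22.0 and 26.3 CPM in WT UT and at 30.3, 34.1 and 33.0 CPM in WT LPS, a log2 fold change of 0.44 ± 0.0963 (adjusted p = 0.000366) that did not pass with the small RNA share in the fit (0.29, adjusted p = 0.0644). In KO it was at 26.9, 25.8 and 23.9 CPM in UT and at 28.1, 32.1 and 23.1 CPM after LPS, so the KO groups overlapped (log2 fold change 0.12 ± 0.0971, adjusted p = 0.276). The difference between these responses was -0.32 ± 0.137 and did not pass (adjusted p = 0.124). Ddit3 shares exonic positions with Mars and Gm4189 on the other strand. Sesn2, a stress-induced inhibitor of mTORC1 signalling, fell in WT by 0.84 on the log2 scale (adjusted p = 1.04e-07). Ppp1r15a, the phosphatase subunit GADD34 that reverses eIF2α phosphorylation, rose in WT (0.55 ± 0.0764, adjusted p = 1.28e-06), with a KO value of 0.06 that did not pass. Trib3, a pseudokinase that dampens ATF4, rose in KO (0.91 ± 0.189, adjusted p = 0.000191) and not past the threshold in WT (0.38 ± 0.190, adjusted p = 0.0795), and the difference between these responses did not pass (0.54 ± 0.268, adjusted p = 0.192).

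**Figure D2:**
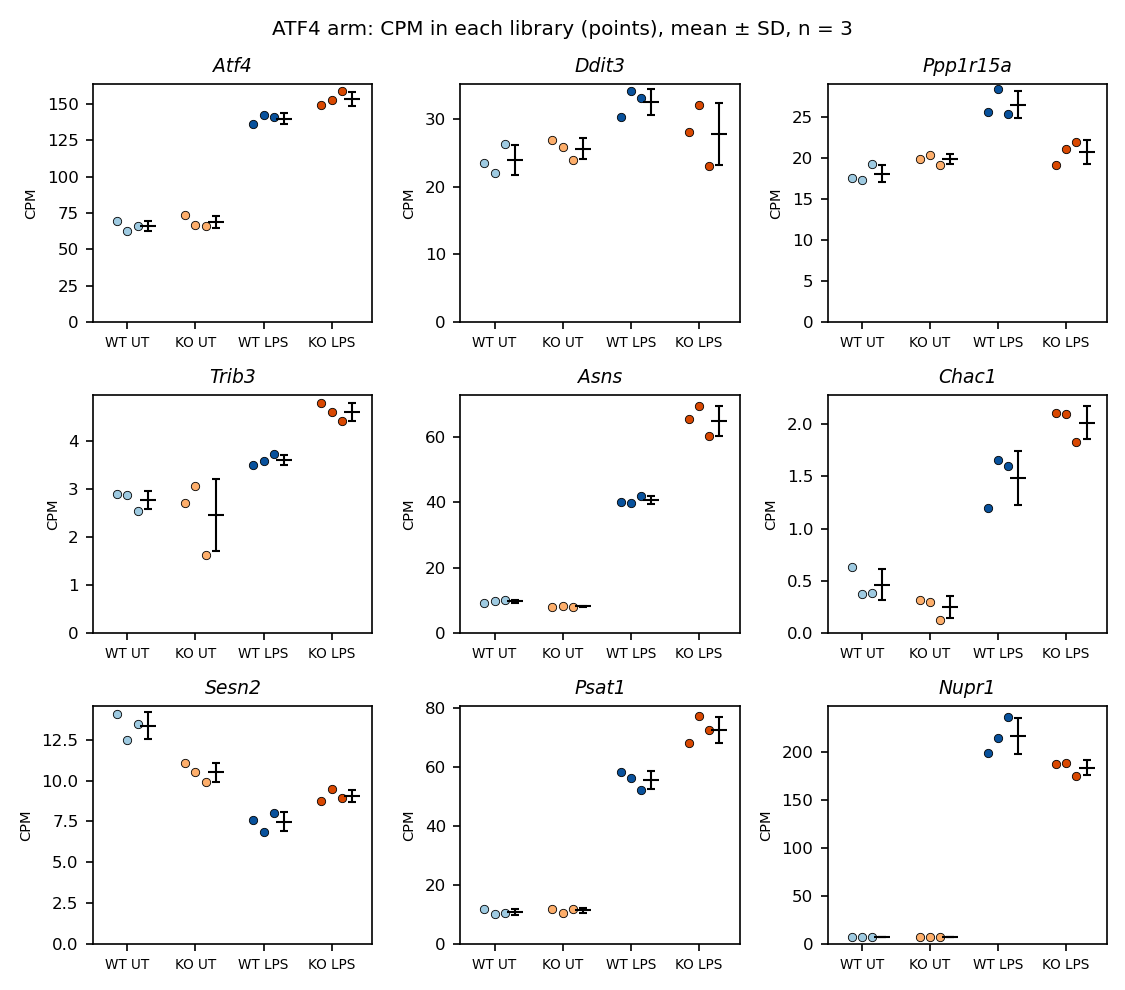
CPM of the 9 ATF4-arm members in each of the 12 libraries (points) with the mean ± SD of each group (n = 3). Asns, Chac1, Psat1 and Nupr1 rise several-fold with LPS, Asns reaches 60.3 to 69.5 CPM in KO LPS against 39.9 to 42.1 CPM in WT LPS, and Sesn2 runs the other way in WT.

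The ER arm moved in both directions. Among the 14 ER chaperones and foldases, 5 rose and 6 fell in WT at any fold change. This mix was near that of all genes (38.0% and 35.3%). In KO 3 rose and 5 fell (all genes 35.1% and 37.7%). The median log2 fold change was -0.11 in WT and 0.01 in KO. The summed level nevertheless went from 2101 to 2264 CPM in UT up to 2516 to 2927 CPM after LPS, a change carried by its most abundant member. Hspa5 encodes BiP, the ER Hsp70 that holds the sensors inactive. It was at 447, 451 and 460 CPM in WT UT and at 1093, 1060 and 963 CPM in WT LPS. KO libraries stood at 449, 422 and 438 CPM in UT and at 919, 910 and 973 CPM after LPS. The rise was 2.30-fold in WT (log2 1.20 ± 0.0541, adjusted p = 1.06e-14) and 2.14-fold in KO (log2 1.10 ± 0.0540, adjusted p = 5.07e-14).

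Hsp90b1, the ER Hsp90 whose promoter holds the same element, did not move with LPS past the threshold. It was at 248, 262 and 260 CPM in WT UT and at 275, 232 and 226 CPM in WT LPS. The KO libraries stood at 208, 215 and 226 CPM in UT and at 212, 211 and 249 CPM after LPS. The UT and LPS libraries overlapped in both genotypes, with log2 fold changes of -0.07 ± 0.0731 and 0.05 ± 0.0732. The KO response passed as a fall with the small RNA share in the fit (-0.36, adjusted p = 0.0147). Calr, a lectin chaperone, fell by 0.39 on the log2 scale in each genotype. Pdia4, a disulfide isomerase, fell by 0.67 in WT and by 0.77 in KO. Dnajb11, a BiP cochaperone, rose by 0.59 in WT and by 0.51 in KO.

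Over the 9 members with an ER stress element, 4 rose, 3 fell and 2 did not pass in WT at any fold change (all genes 38.0% higher, 35.3% lower). In KO 2 rose, 3 fell and 4 did not pass (all genes 35.1% higher, 37.7% lower). With 9 members such counts cannot be set apart from those shares. The log2 fold changes of the 9 members ran from -2.53 to 1.20 in WT. The lowest was that of Derl3, an ERAD channel subunit, which was close to the counting limit. It held 29, 17 and 22 counts in WT UT and 4, 2 and 0 in WT LPS, and 13, 9 and 10 counts in KO UT and 2, 1 and 2 in KO LPS. Summed over libraries its level was 5.90-fold higher in UT than after LPS in WT (95% exact interval 2.58 to 16.6) and 4.74-fold in KO (1.83 to 15.6), where the intervals cover counting error only. Both calls were lost with the small RNA share in the fit (adjusted p = 0.152 in WT and 0.158 in KO), where the log2 fold changes were -1.87 ± 1.13 and -3.53 ± 2.02.

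Manf and Sdf2l1, a secreted and a resident partner of BiP, responded in opposite directions. Manf was at 46.4, 45.4 and 46.2 CPM in WT UT and at 103, 118 and 116 CPM in WT LPS. Without the enhancer it was at 63.3, 63.7 and 64.3 CPM in UT and at 92.3, 91.9 and 92.3 CPM after LPS. The KO values lay between the WT UT and WT LPS values in both treatments. Sdf2l1 was at 62.5, 61.7 and 66.5 CPM in WT UT and at 39.1, 41.0 and 40.6 CPM in WT LPS. In KO it was at 87.2, 82.7 and 82.0 CPM in UT and at 38.6, 39.8 and 31.0 CPM after LPS, a fall of 1.20 on the log2 scale (adjusted p = 2.14e-12). Manf overlaps exons of Dcaf1, Rbm15b and 4930524O07Rik, so its counts are less certain.

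The sensors fell while Xbp1 rose. Eif2ak3 was at 22.6, 22.6 and 23.1 CPM in WT UT and at 7.27, 5.61 and 6.13 CPM in WT LPS. The KO values were 23.3, 22.0 and 23.1 CPM in UT and 7.67, 6.12 and 7.83 CPM after LPS. PERK transcript was thus 3.57-fold lower after LPS in WT and 3.16-fold lower in KO. Ern1 fell by 0.93 in WT and by 0.77 in KO on the log2 scale, and Atf6 by 0.69 and by 0.19. Xbp1 was at 126, 120 and 127 CPM in WT UT and at 167, 175 and 171 CPM in WT LPS. In KO it was at 118, 117 and 119 CPM in UT and at 147, 150 and 158 CPM after LPS. Its rise was 0.46 ± 0.0526 in WT (adjusted p = 7.89e-08) and 0.37 ± 0.0527 in KO (adjusted p = 2.29e-06). Gene counts do not separate spliced from unspliced Xbp1.

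In ERAD, Syvn1, which encodes the ubiquitin ligase HRD1, rose by 0.97 in WT and by 0.62 in KO. Its partner Sel1l stayed at 169 to 194 CPM in all 12 libraries, with log2 fold changes of 0.06 ± 0.0568 in WT and 0.13 ± 0.0568 in KO. Its WT response passed with the small RNA share in the fit (0.20, adjusted p = 0.0165), where the KO value was -0.12. Edem1, which hands misfolded glycoproteins to this complex, fell by 0.44 in WT and by 0.42 in KO. Herpud1, a scaffold of the complex, fell by 0.27 in WT, and its KO value of -0.12 did not pass.

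Of the 4 cytosolic heat-shock genes, Hspa8, Hsp90aa1 and Dnajb1 rose in both genotypes, while Hsph1 fell in WT. The summed level of the 4 members was 1050 to 1066 CPM in WT UT and 1734 to 1987 CPM in WT LPS, and 992 to 1017 CPM in KO UT and 2185 to 2398 CPM in KO LPS. Hspa8, the constitutive Hsp70, had the highest level per length of all members, at a mean of 206 CPM per kb of exon in WT UT against 107 CPM per kb for Hspa5. It was at 879, 879 and 893 CPM in WT UT and at 1667, 1611 and 1465 CPM in WT LPS. KO cultures stood at 830, 823 and 844 CPM in UT and at 1864, 1956 and 2040 CPM after LPS. The rise of 1.23 ± 0.0524 on the log2 scale was called in KO, whereas that of 0.84 ± 0.0520 in WT passed the test below the fold minimum. Snord14c, Snord14d and Snord14e lie within Hspa8 on the same strand.

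Hsp90aa1, the inducible Hsp90, was at 110, 117 and 116 CPM in WT UT and at 230, 206 and 185 CPM in WT LPS. The KO cultures stood at 120, 116 and 121 CPM in UT and at 238, 238 and 265 CPM after LPS. Dnajb1, the Hsp40 partner of Hsp70, was at 26.1, 24.4 and 24.3 CPM in WT UT and at 59.8, 63.7 and 59.4 CPM in WT LPS. It was at 32.1, 26.6 and 28.2 CPM in KO UT and at 58.5, 61.4 and 63.0 CPM in KO LPS. Its rise was called in both genotypes, 2.44-fold in WT and 2.11-fold in KO. With the small RNA share in the fit, the KO responses of Hspa5 (0.87), Hspa8 (0.98) and Hsp90aa1 (0.65) still passed the test but not the fold minimum. Hsph1, a nucleotide exchange factor, fell in WT (-0.27 ± 0.0904, adjusted p = 0.0109) and did not pass in KO (0.00 ± 0.0914), and the WT call was lost with the small RNA share in the fit (-0.14, adjusted p = 0.344). Processed pseudogenes of Hspa8, Hsp90aa1, Hspd1 and Hspe1 exist and may share reads with them.

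The mitochondrial pair parted, though exons of the 2 genes overlap on opposite strands, so their counts are less certain. Hspd1, the HSP60 barrel, was at 49.8, 49.0 and 54.2 CPM in WT UT and at 56.8, 52.2 and 43.6 CPM in WT LPS. It was at 53.3, 54.8 and 56.9 CPM in KO UT and at 55.8, 54.9 and 59.6 CPM in KO LPS, and no comparison passed. With the small RNA share in the fit Hspd1 passed in KO UT against WT UT (0.64, adjusted p = 0.00371) and in both LPS responses, upward in WT (0.27, adjusted p = 0.00489) and downward in KO (-0.45, adjusted p = 0.00397). Hspe1, the HSP10 lid encoded from the same promoter region, was at 65.4, 60.8 and 66.5 CPM in WT UT and at 59.1, 69.0 and 83.9 CPM in WT LPS. It was at 95.9, 98.3 and 91.8 CPM in KO UT and at 68.9, 67.1 and 60.2 CPM in KO LPS. The 3 KO UT libraries stood above the other 9. Its fall with LPS in KO (-0.54, adjusted p = 9.09e-06) was lost with the share in the fit (0.10, adjusted p = 0.561), while in WT a fall passed only in that fit (-0.25, adjusted p = 0.0125). The WT LPS libraries lay in the same order as their small RNA shares of 4.04%, 5.36% and 6.88%.

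**Figure D3:**
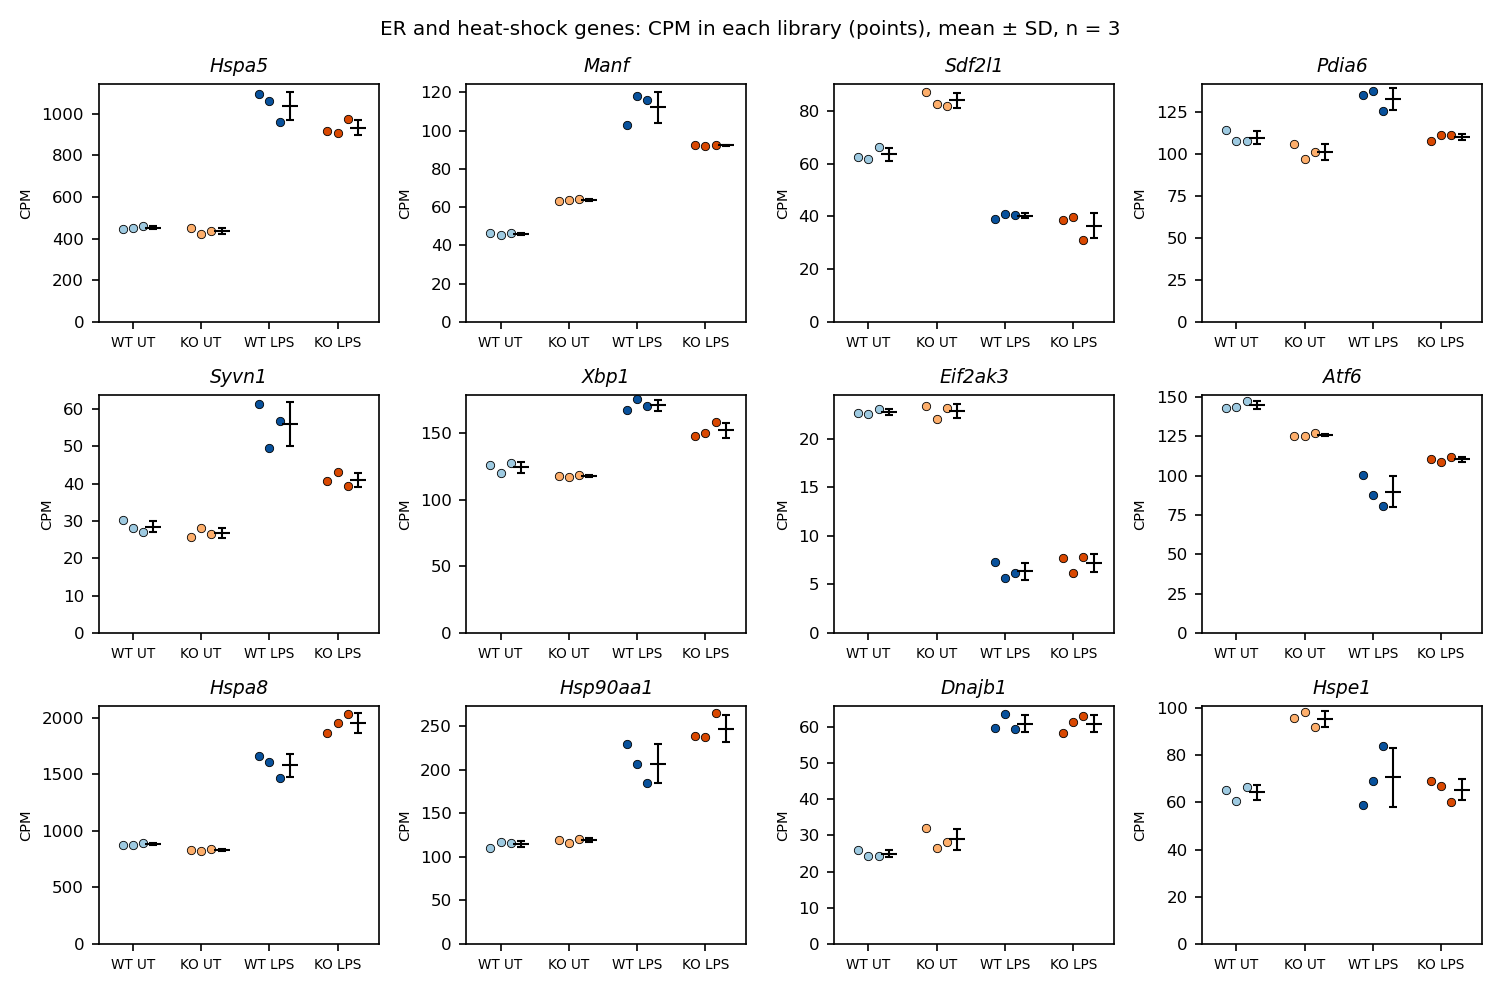
CPM of 12 members of the ER, sensor, heat-shock and mitochondrial arms in each library (points) with the mean ± SD of each group (n = 3). Hspa5, Hspa8, Hsp90aa1 and Dnajb1 step up with LPS in both genotypes, Eif2ak3 falls to 5.61 to 7.83 CPM, and Hspe1 is highest in the 3 KO UT libraries.

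After LPS, KO and WT macrophages differed by small amounts. No member was called (0 of 39, background 1.25% of all genes). At an unadjusted p under 0.05 the count was 21, of which 0 were past the fold minimum, and DESeq2 also called 0. At any fold change 5 members were higher in KO and 6 lower, which is 12.8% and 15.4% of members against 7.78% and 6.54% of all genes. The KO and WT libraries did not overlap for 19 members, against 29.1% of all genes.

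Of the ATF4 arm, Asns and Psat1 were higher in KO and Ppp1r15a and Nupr1 lower. Asns showed the largest difference, 1.60-fold higher in KO (log2 0.68 ± 0.0658, adjusted p = 6.32e-07). Psat1 was 1.30-fold higher (log2 0.38 ± 0.0717, adjusted p = 0.00115). Ppp1r15a was at 25.6, 28.3 and 25.4 CPM in WT LPS and at 19.1, 21.1 and 21.8 CPM in KO LPS. Atf4 differed by 0.13 ± 0.0584 and did not pass (adjusted p = 0.133). Ppp1r15a overlaps exons of Tulp2.

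None of the 14 ER chaperones and foldases and 6 ERAD genes passed as higher in KO LPS, and 3 passed as lower. Syvn1 was at 61.3, 49.7 and 56.8 CPM in WT LPS and at 40.8, 43.1 and 39.3 CPM in KO LPS, a log2 difference of -0.45 ± 0.0743 (adjusted p = 0.00037). Pdia6, a disulfide isomerase, was at 135, 138 and 125 CPM in WT LPS and at 108, 111 and 111 CPM in KO LPS (-0.27 ± 0.0563, adjusted p = 0.00251). Both share exonic positions with a gene on the other strand, Mrpl49 for Syvn1 and Atp6v1c2 for Pdia6. Manf was lower by -0.28 ± 0.0556 (adjusted p = 0.00168). Hspa5 was lower by -0.15 ± 0.0534, which did not pass (adjusted p = 0.0589). Of the sensors and XBP1, Atf6 was higher and Xbp1 lower. Atf6 was at 100, 87.8 and 81.0 CPM in WT LPS and at 110, 109 and 112 CPM in KO LPS, a difference of 0.30 ± 0.0639 (adjusted p = 0.00351). Xbp1 was lower by -0.17 ± 0.0527 (adjusted p = 0.0357), and this call was lost with the replicate block (adjusted p = 0.0619), with only the 2 compared groups in the fit (0.0764), with no filter on low counts (0.208) and in 4 of 6 fits that left out 1 library, with the highest adjusted p, 0.144, without KO LPS 1.

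Hspa8 was 1.24-fold higher in KO LPS than in WT LPS (log2 0.30 ± 0.0516, adjusted p = 0.000442), and Hsp90aa1 was 1.19-fold higher (log2 0.26 ± 0.0679, adjusted p = 0.0152). The Hsp90aa1 call was lost in 2 of 6 fits that left out 1 library (0.20, adjusted p = 0.0880, without KO LPS 3), as was that of Nupr1 (-0.20, adjusted p = 0.0758, without KO LPS 3). The heat-shock sums of the groups did not overlap, but most of the sum was Hspa8, at means of 1581 and 1953 CPM in WT LPS and KO LPS, and Hsph1 (-0.04) and Dnajb1 (0.00) did not pass. Within WT LPS, Hspa8, Hsp90aa1 and Atf6 were lowest in the library with the highest small RNA share.

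With the small RNA share in the fit, 4 of these 11 members still passed in the same direction: Asns (0.73, adjusted p = 8.7e-06), Syvn1 (-0.50, adjusted p = 0.00102), Pdia6 (-0.33, adjusted p = 0.00325) and Hspa8 (0.18, adjusted p = 0.0277). In that fit 8.55% of all genes passed. Another 3 members passed only in that fit, all lower in KO: Hspa5 (-0.27), Hsp90b1 (-0.33) and Hyou1 (-0.38), each of them an ER chaperone. Of the 7 that did not pass, Ppp1r15a (-0.35, adjusted p = 0.0553) and Xbp1 (-0.16) had about the same values as before, and Psat1 (0.27, adjusted p = 0.0776), Manf (-0.19), Atf6 (0.11), Nupr1 (-0.07) and Hsp90aa1 (0.05) had smaller ones.

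**Figure D4:**
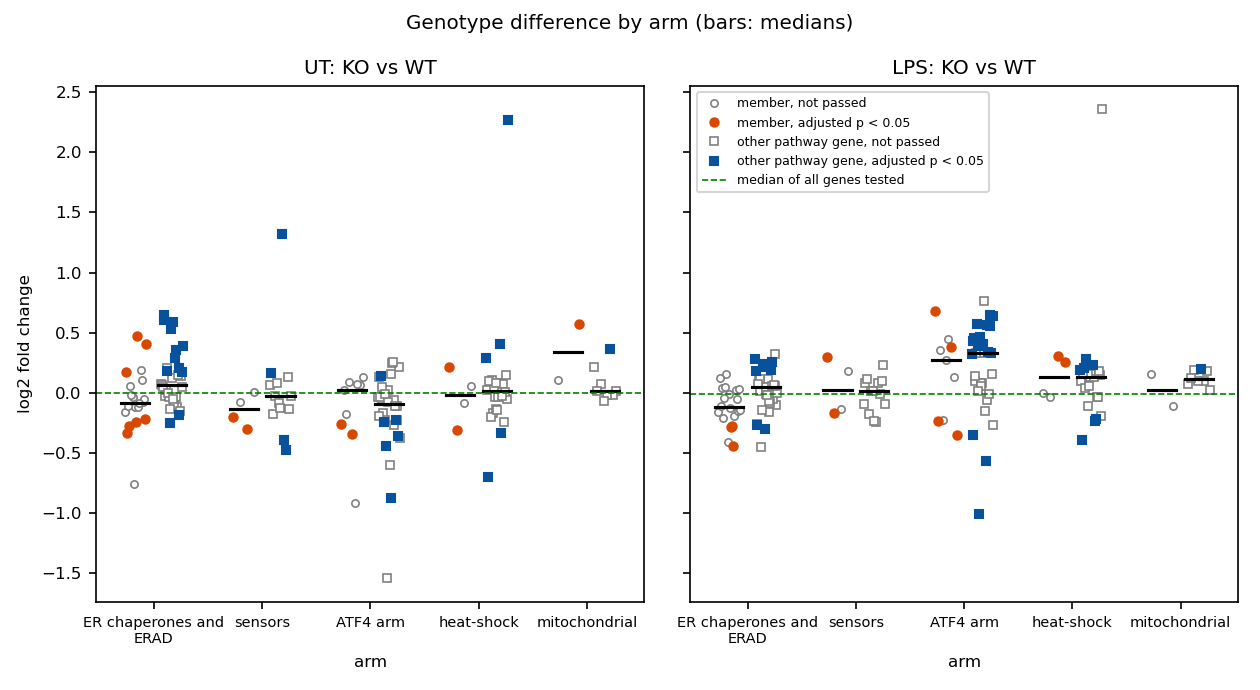
Log2 fold change of KO against WT in UT (left) and after LPS (right) for members (circles) and the other pathway genes tested (squares), by arm; filled symbols passed an adjusted p of 0.05, bars are medians and the dashed line is the median of all genes. After LPS the other pathway genes have a median of 0.33 in the ATF4 arm and of 0.05 in the ER list.

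Without LPS, 14 members differed between KO and WT at any fold change and 0 were called (background 1.82%). At an unadjusted p under 0.05 the count was 18, of which 0 were past the fold minimum, and DESeq2 called 0. Of the 14, 5 were higher in KO and 9 lower, against 14.1% and 9.69% of all genes. The libraries did not overlap for 21 members, against 40.8% of all genes. Among the members that passed, the largest differences were those of Hspe1 (0.57 ± 0.0857, adjusted p = 3.91e-05), Manf (0.47 ± 0.0561, adjusted p = 3.17e-06) and Sdf2l1 (0.40 ± 0.0697, adjusted p = 0.000179), all higher in KO. Derl1 (0.17) and Dnajb1 (0.21) were the others that were higher. Lower in KO were the chaperones Dnajb9 (-0.33), Hyou1 (-0.28), Hsp90b1 (-0.25) and Pdia3 (-0.22), the sensors Ern1 (-0.30) and Atf6 (-0.20), and Sesn2 (-0.35), Hsph1 (-0.31) and Asns (-0.26). The Pdia3 call was lost with the replicate block (adjusted p = 0.0707) and in all 6 fits that left out 1 library (highest adjusted p 0.137, without KO UT 1). Those of Hsp90b1, Dnajb9, Derl1, Atf6, Asns, Hsph1 and Dnajb1 were lost in 2 to 4 of these 6 fits, with the highest adjusted p, 0.209, for Dnajb1 without KO UT 1. Derl1 and Dnajb1 were also lost with DESeq2 (0.0855 and 0.145).

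None of these 14 passed with the small RNA share in the fit, where the values of Hspe1 (-0.11), Hsp90b1 (0.19), Pdia3 (0.26), Dnajb9 (0.15), Hyou1 (0.07) and Atf6 (0.19) had the other sign. Other values kept their sign and were larger, with wider errors: Ern1 (-0.39 ± 0.130, adjusted p = 0.0765), Sesn2 (-0.57 ± 0.267), Asns (-0.37 ± 0.174) and Derl1 (0.24 ± 0.113). Those of Manf (0.28 ± 0.117), Sdf2l1 (0.28 ± 0.162), Dnajb1 (0.17 ± 0.156) and Hsph1 (-0.07 ± 0.211) kept their sign and were smaller. Canx (0.47, adjusted p = 0.00263), Hsp90aa1 (0.48, adjusted p = 0.0143) and Hspd1 (0.64, adjusted p = 0.00371) passed only in that fit, all higher in KO, and 5.28% of all genes passed in it. In UT the share and the genotype cannot be told apart, since every KO library held more than 2 times the share of every WT library. After LPS the shares of the genotypes did not overlap either. A pass or a loss in that fit therefore does not separate share from genotype after LPS or in the interaction.

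Whether the LPS response itself differed between genotypes was tested as an interaction. No member was called (background 2.16%). At an unadjusted p under 0.05 the count was 18, of which 1 was past the fold minimum, and DESeq2 called 2, Asns and Chac1. At any fold change 4 members responded more upward in KO and 6 more downward, against 7.32% and 9.50% of all genes. That balance was reversed with DESeq2 and with RLE scaling. The upward ones were Asns (0.94 ± 0.102, adjusted p = 4.24e-06), Sesn2 (0.62 ± 0.137, adjusted p = 0.00321), Atf6 (0.50 ± 0.0891, adjusted p = 0.000532) and Hspa8 (0.39 ± 0.0730, adjusted p = 0.000778). The downward ones were Manf (-0.75 ± 0.0790, adjusted p = 2.43e-06), Hspe1 (-0.68 ± 0.123, adjusted p = 0.000622), Sdf2l1 (-0.54 ± 0.103, adjusted p = 0.000898), Ppp1r15a (-0.49 ± 0.109, adjusted p = 0.00342), Creld2 (-0.38 ± 0.119, adjusted p = 0.0306) and Syvn1 (-0.36 ± 0.105, adjusted p = 0.0231). Creld2 was lost in 6 and Syvn1 in 5 of 12 fits that left out 1 library (highest adjusted p 0.111 without KO UT 1 and 0.0718 without KO UT 2), and both with DESeq2 (0.0773 and 0.0721). Manf, Atf6 and Asns passed between genotypes in both treatments, each with opposite signs in UT and after LPS. With the small RNA share in the fit, Asns alone of the 10 still passed (1.10, adjusted p = 0.0233), and Canx passed only in that fit (-0.57, adjusted p = 0.0407). The values of Sesn2 (0.95 ± 0.397), Syvn1 (-0.52 ± 0.245) and Ppp1r15a (-0.48 ± 0.289) were about as large or larger, with wider errors, those of Manf (-0.46), Sdf2l1 (-0.36), Hspa8 (0.01) and Creld2 (-0.01) were smaller, and Atf6 and Hspe1 changed sign.

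**Figure D5:**
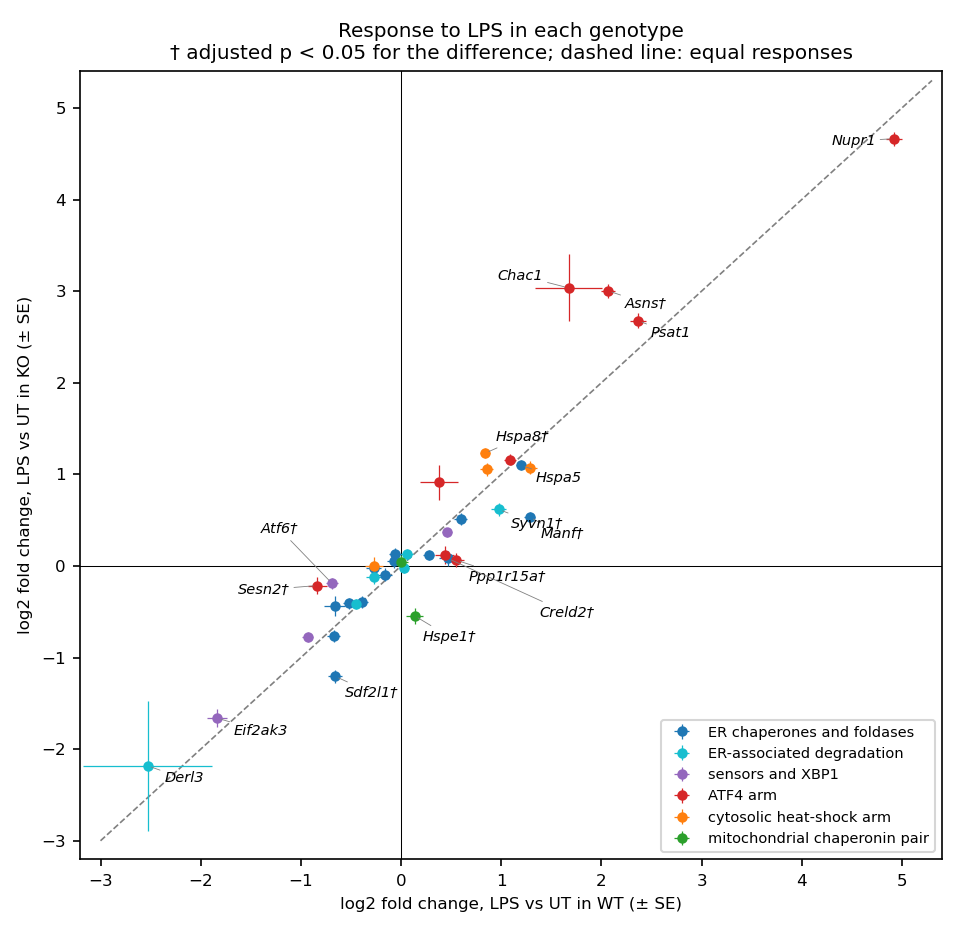
Log2 fold change of LPS against UT in WT (x axis) and in KO (y axis) for the 39 members, with SE bars and colour by arm; the dashed line marks equal responses and daggers mark members whose responses differed at an adjusted p under 0.05. Asns lies above the line (2.07 in WT, 3.00 in KO) and Manf below it (1.28 in WT, 0.53 in KO).

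Other genes of the same pathways were counted from lists that are not part of the 39. Of 109 listed genes 105 were tested, all but Stc2, Pycr1, Fgf21 and Hspb8. After LPS, 24 of the 105 were higher in KO than in WT and 8 lower at any fold change, which is 22.9% and 7.62% against 7.78% and 6.54% of all genes. The 1 gene called (0.952%, all genes 1.25%) was Gdf15, a stress cytokine that was lower in KO (-1.01 ± 0.229, adjusted p = 0.00515). Among the 24 were 13 of the ATF4 arm, where 13 of 30 were higher and 3 lower, with a median of 0.33 against -0.0075 over all genes.

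Those 13 were Aars, Nars, Gars, Iars, Mars and Eprs, which charge tRNAs, Shmt2, Mthfd2, Phgdh and Aldh18a1, which make serine, one-carbon units and proline, the amino acid transporters Slc7a5 and Slc7a1, and Pck2, the mitochondrial enzyme of phosphoenolpyruvate synthesis. Iars showed a difference of 0.55 ± 0.0672 (adjusted p = 1.20e-05). The lower ones were Gdf15, Ddit4 and Sqstm1. With the small RNA share in the fit, 6 of the 13 still passed, Aars, Mthfd2, Slc7a1, Iars, Aldh18a1 and Slc7a5, and of the lower ones Sqstm1. Of the 7 that did not, Mars (0.37) and Pck2 (0.39) had values close to those without the share (0.43 and 0.34), and Nars (0.18), Gars (0.23), Eprs (0.21), Shmt2 (0.39) and Phgdh (0.46) had smaller ones.

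In the ER folding and degradation list 6 of 30 were higher after LPS (20%, all genes 7.78%) and 2 lower (6.67%, all genes 6.54%). With the share in the fit 0 of the 6 passed. In the heat-shock list 4 of 24 were higher and 3 lower, which is 16.7% and 12.5% against the same shares of all genes. The inducible Hsp70 gene Hspa1b was among the lower, at 18.0 to 19.3 CPM in WT LPS and 13.3 to 15.8 CPM in KO LPS, whereas its near-identical neighbour Hspa1a had means of 10.7 and 10.4 CPM and did not pass, and the pair may share reads. With the share in the fit 0 of the 4 and 1 of the 3 still passed, and Hspa1b did not (-0.35, adjusted p = 0.216). No gene of the sensor and regulator list passed.

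Without LPS, 17 of the 105 were higher in KO and 11 lower, and these shares of 16.2% and 10.5% are near those of all genes (14.1% and 9.69%). Of the 17, 10 were in the ER folding and degradation list, led by Spcs1 (0.65), Fkbp2 (0.61), Ppib (0.59) and Sec61b (0.53), and 0 of the 10 passed with the small RNA share in the fit. The values of these 4 were smaller or of the other sign there (0.21, -0.07, 0.03 and -0.27), whereas those of Selenos (0.46, adjusted p = 0.0518), Derl2 (0.33) and Edem2 (0.25) were larger than without it (0.36, 0.18 and 0.17). Slc7a11, the cystine transporter, was lower in KO UT, at 6.07 to 7.84 CPM against 12.5 to 12.9 CPM in WT UT (-0.88 ± 0.0799). It also passed with the share in the fit (-0.60, adjusted p = 0.00268), although share and genotype cannot be told apart in UT. The 2 genes called, Hspb1 and Bloc1s1, had means under 1 CPM in both UT groups. Neither passed with the share in the fit (1.14, adjusted p = 0.861, and -0.15, adjusted p = 0.970). In that fit 6 of the 105 passed as higher and 1 as lower, when 5.28% of all genes passed. The heat-shock list held 5 of the 6, of which 1 had passed without the share.

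With LPS itself, 24 pathway genes (22.9%, all genes 19.1%) were called higher and 5 (4.76%, all genes 18.7%) lower in WT. The KO counts were 24 (22.9%, all genes 17.7%) and 7 (6.67%, all genes 19.3%). Slc7a11 rose most, by 6.45 in WT and 7.17 in KO on the log2 scale. Vegfa, in the same ATF4 list, fell most (-2.76 in WT and -2.73 in KO), from a mean of 263 to 38.9 CPM in WT. In the heat-shock list Hspa1b rose by 2.96 and 3.26. Among the regulators Ppp1r15b, the constitutive partner of the eIF2α phosphatase, rose by 2.62 and 2.72, and the kinase Eif2ak2 by 2.28 and 2.75. The amino acid-sensing kinase Eif2ak4 fell by 1.03 and 1.18. Creb3l2 had the largest fall of this list in WT (-1.61), from a mean of 10.1 to 3.31 CPM, and went from 7.73 to 3.52 CPM in KO. Ero1l, an ER oxidase, rose by 1.82 and 2.29, and its paralogue Ero1lb fell by 1.37 and 1.49.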

How the data were processed

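Total RNA of 12 BMDM cultures was sequenced by the authors from TruSeq Stranded Total RNA Globin libraries. Per the labels, reads were handled with FastQC 0.11.9, HISAT2 2.1.0, SAMtools 1.17 and featureCounts 2.0.0 on GRCm38. Which annotation release was counted, whether strand was used and how multimapping reads were treated is not given in the sources used here. The authors deposited raw counts per gene, 26154533 to 36423921 per library, so members with few counts, such as Derl3 and Chac1, are imprecise.

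Gene identifiers were named through GENCODE M21, which matched 48144 of 48526. The 39 members, their arms, the pathway lists and the markers were chosen with earlier results of these data known. Groups came from the labels. Genes passing filterByExpr (minimum count 10, minimum total 15) were fitted in edgeR 4.0.16 (R 4.3.3) with TMM scaling, 4 group means and the quasi-likelihood test, and p was adjusted by Benjamini-Hochberg over 15523 genes. Each SE was worked back from that test, as the absolute log2 fold change divided by the square root of the F statistic. Common biological variation was 0.0712. All replicates within a group differed beyond sampling noise (lowest chi-square per degree of freedom 3.81).

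Library values and tests were planned for Hspa5, Hsp90b1, Xbp1, Atf4, Ddit3, Hspa8, Hsp90aa1 and Hspd1 and for the 2 largest called changes of an arm per LPS comparison. Other members, and the pathway genes named, were chosen after their values were seen. The labels give a batch number equal to the replicate number, so libraries are paired by label, but over 18 same-number pairs the correlation of deviations was -0.166 to 0.0901, with 0 over 0.1. Alternatives were DESeq2 1.42.0, other scalings and filters, a replicate block, compared groups only, leaving out each library, and the share of small structured RNA as a covariate, the last added after seeing the data. The pipeline was tested on simulated data. Promoter windows came from RefSeq GRCm38.p6. Figures used matplotlib 3.10.9. The authors used DESeq2 at the same thresholds. No deposited comparison columns were used.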

Additional observations from a re-analysis of the deposited data

Results flagged for a closer look

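The difference between KO and WT in the log2 response to LPS passed edgeR's adjusted p of 0.05 for 10 members, by the interaction term. Groups of 3 libraries were not screened for single libraries far from the others. Of the 4 members that responded more upward in KO, Asns had a difference of 0.94 (2.07 in WT, 3.00 in KO), Sesn2 of 0.62 (-0.84 and -0.21), Atf6 of 0.50 (-0.69 and -0.19) and Hspa8 of 0.39 (0.84 and 1.23). Of the 6 that responded more downward in KO, Manf had a difference of -0.75 (1.28 in WT, 0.53 in KO), Hspe1 of -0.68 (0.13 and -0.54), Sdf2l1 of -0.54 (-0.66 and -1.20), Ppp1r15a of -0.49 (0.55 and 0.06), Creld2 of -0.38 (0.47 and 0.08) and Syvn1 of -0.36 (0.97 and 0.62). The share of small structured RNA differed between the groups in the same crossed way, and its part was not tested. With it in the fit 1 of the 10 passed, while Sesn2 (0.95), Syvn1 (-0.52) and Ppp1r15a (-0.48) had values about as large or larger with wider errors. Manf (-0.46), Sdf2l1 (-0.36), Hspa8 (0.01) and Creld2 (-0.01) had smaller ones, and Atf6 (-0.075) and Hspe1 (0.34) changed sign. Creld2 and Syvn1 were also lost with DESeq2 and in some fits that left out 1 library. The balance of upward and downward members was reversed with DESeq2 and with RLE scaling.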

How the results depend on the processing

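Of 57 member results followed over 555 alternative values, 508 kept their direction and side of the threshold, 39 lost significance and 8 changed sign, all 8 in the fit with the small structured RNA share (chosen after seeing the data), which accounted for 33 of these 47. Those 8 were, between KO and WT in UT, Hsp90b1 (0.19), Pdia3 (0.26), Dnajb9 (0.15), Hyou1 (0.072), Atf6 (0.19) and Hspe1 (-0.11), and in the interaction Atf6 (-0.075) and Hspe1 (0.34). With that share, members at any fold change numbered 7 after LPS, 3 in UT and 2 for the interaction (main 11, 14 and 10), when 8.55%, 5.28% and 1.2% of all genes passed, and 1 was called for the interaction, Asns. Without a fold minimum the counts were 11 (KO LPS vs WT LPS), 14 (KO UT vs WT UT), 31 (LPS in WT), 25 (LPS in KO) and 10 (interaction). DESeq2 and RLE scaling each called 2 interaction members, Asns and Chac1. The split between higher and lower in UT was 3 to 15 with DESeq2 and with RLE scaling (main 5 to 9), and for the interaction 10 to 4 and 9 to 4 (main 4 to 6). Upper-quartile scaling moved the median of all genes by -0.18 in both LPS responses and split the members 16 to 20 with LPS in WT (main 17 to 14) and 14 to 16 in KO (main 14 to 11). Leaving out 1 library gave 7 to 12 members in UT (lowest without WT UT 2, and 8 without WT UT 3 or KO UT 1) and 8 to 17 for the interaction (highest without WT LPS 1), and 13 of the 57 results were lost at least once. The replicate block gave 10, 13 and 10 members at any fold change for KO against WT after LPS, in UT and for the interaction, and lost Xbp1 after LPS and Pdia3 in UT among the 57. The causes were not tested.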
